A study of Mus musculus with 43 samples.

Results

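Complex I, the NADH dehydrogenase of the mitochondrial respiratory chain, is assembled from subunits encoded in the nucleus and in mitochondrial DNA. The genes described here are 35 nuclear subunit genes of the mouse, found by symbol among the 57010 genes of a bulk RNA-seq count table. Each symbol matched 1 Ensembl gene. All 35 genes had enough counts to be tested in every comparison, and the lowest count of any of them in any library was 74.

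The 43 libraries form 14 groups. Q150X mice carry a stop codon allele of Vegfa made with CRISPR/Cas9, which the design text marks HO, and wild-type (WT) mice do not. Whole hearts were taken from 3 Q150X and 3 WT samples at homeostasis (no infarction), from 4 and 4 at day 7 after myocardial infarction (MI) and from 4 and 3 at day 30. Cardiomyocytes have 3 Q150X and 3 WT libraries at day 3 after MI and at homeostasis. Endothelial cells have 2 Q150X and 2 WT libraries at day 3 and 3 of each at homeostasis. The design text describes adult mice. Strain, sex, the way cells were isolated and whether replicates are separate animals are not stated in the labels, so p-values measure the spread between these libraries, which may be technical.

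The peripheral arm of complex I takes electrons from NADH through a flavin and a chain of iron-sulfur clusters to ubiquinone, and the membrane arm pumps protons. A set of core subunits carries out this chemistry. The other subunits, called accessory, surround the core and are needed for assembly and stability. Cardiomyocytes are packed with mitochondria and draw most of their ATP from this chain. The members were sorted by role into 6 core subunits (Ndufv1, Ndufv2, Ndufs1, Ndufs3, Ndufs7 and Ndufs8), 9 accessory subunits of the arm that oxidises NADH and reduces quinone, 9 of the proximal and 10 of the distal membrane arm, and Ndufab1, the mitochondrial acyl carrier protein.

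Libraries held 25035490 to 45243608 counts, and members took 0.586 to 0.836% of the counts in hearts, 0.428 to 0.623% in cardiomyocytes and 0.089 to 0.130% in endothelial cells. The 12 cardiomyocyte structure genes summed to 60057 to 100061 CPM (counts scaled to library size) in cardiomyocytes and to 219 to 2980 CPM in endothelial cells. Vegfa was detected in every library (238 to 622 CPM in cardiomyocytes, 149.6 to 654 CPM in hearts and 29.4 to 167 CPM in endothelial cells) and did not pass the test between genotypes in any of 7 comparisons. A count does not show whether the stop codon is present. Some libraries stood apart. Library 1 of the hearts at homeostasis held 1649 CPM of 4 atrial markers in Q150X and 1769 CPM in WT, against at most 1.34 CPM in the other homeostasis hearts. Day 7 WT heart 4 held 787 CPM of 3 placental markers, which summed to at most 0.125 CPM in the other hearts. Day 3 Q150X endothelial library 2 held 991 CPM of 10 endothelial markers, against 5361 to 8061 CPM in the other day 3 libraries. Against their label, both day 3 Q150X endothelial libraries held more leukocyte than endothelial marker mRNA. Over 10 leukocyte genes library 2 held 3354 CPM, and library 1 held 7292 CPM against 5361 CPM of endothelial markers. Results that rest on library 2 are given with and without it.

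At homeostasis, complex I mRNA was far more abundant in cardiomyocytes than in endothelial cells. All 35 genes were higher in cardiomyocytes in Q150X and in WT (edgeR quasi-likelihood test, Benjamini-Hochberg adjusted p under 0.05), against 32.8 and 32.6% of all genes tested. The median fold was 11.6 in Q150X and 11.5 in WT (log2 fold change 3.53 in each). Ndufs1, the largest subunit and a carrier of iron-sulfur clusters, had the largest difference in WT (log2 fold change 4.69 ± 0.19, SE). Ndufa10, a membrane arm subunit related to nucleoside kinases, followed at 4.49 ± 0.16. Ndufb2, a small subunit of the distal arm, had the smallest difference in WT, at 0.93 on the log2 scale. In 2 populations this different the scale matters. With library size alone the median log2 fold change of all genes moved to -1.41 in Q150X and -1.52 in WT, that of members to 2.37 and 2.21, and 34 and 33 of 35 genes were still higher. The share of all genes called on that scale is not given here.

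**Figure D1:**
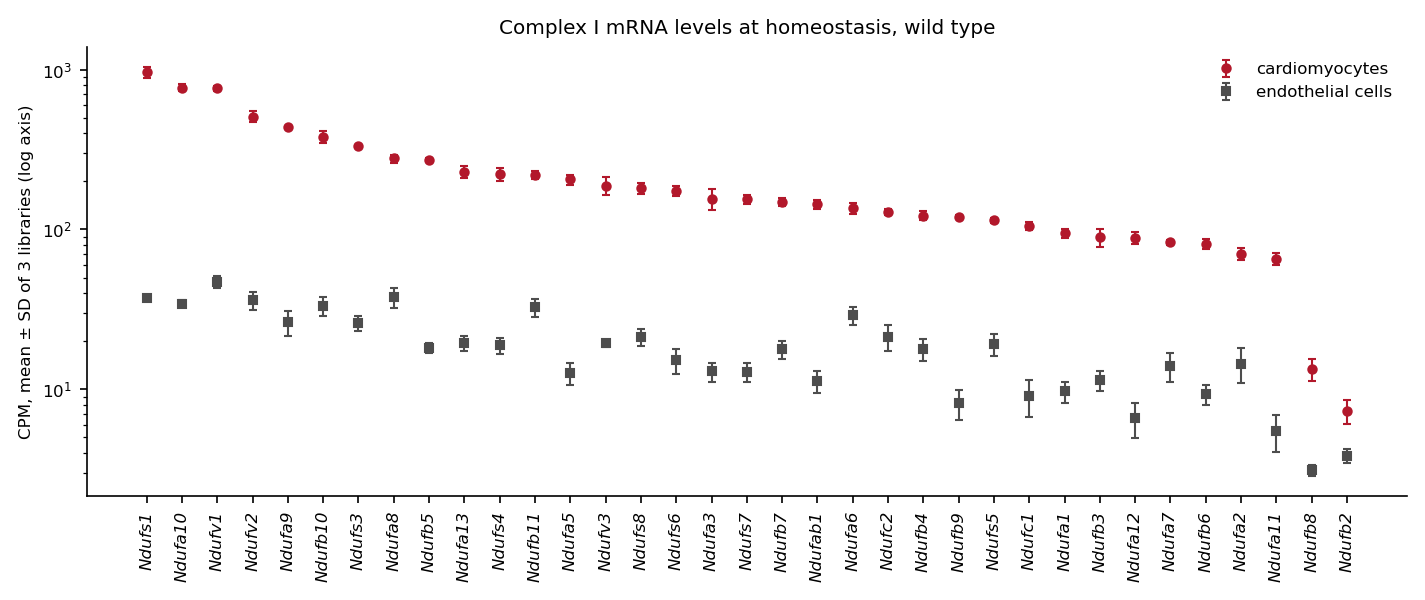
Levels of the 35 genes in WT cardiomyocytes and WT endothelial cells at homeostasis (CPM on a common scale, log axis, mean ± SD of 3 libraries each), ordered by the cardiomyocyte level. Every gene lies higher in cardiomyocytes, and Ndufb2 and Ndufb8 are the lowest there.

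Members differed widely in level among themselves. Per kilobase of exon, WT cardiomyocytes at homeostasis held most mRNA of Ndufa8 (323 CPM per kb), Ndufb10 (313) and the flavin-binding core subunit Ndufv1 (289), and least of Ndufb8 (4.24) and Ndufb2 (1.30). The order was nearly the same in Q150X cardiomyocytes (Spearman rho 0.99 over the 35 genes, a description of libraries on a common scale), in WT hearts (0.95) and, less closely, in WT endothelial cells (0.83). Exon lengths come from GENCODE vM21. They merge the exons of all annotated transcripts of a gene and can exceed the length of its mRNA. In that annotation Ndufb2, Ndufb8 and Ndufb9 are the 3 members that overlap another gene on the same strand (Gm42420, Gm20538 and Gm49356), and counting rules can withhold reads there. Gm15920 shares 14.6% of the 75-base words of Ndufa12 and held more counts (144818, against 99668 for Ndufa12), so the values of Ndufa12 are uncertain. So are those of Ndufb4, Ndufs5 and Ndufs3, with 17.2, 15.7 and 11.7% of words shared, and of Ndufab1, which shares words with 7 genes.

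Complex I mRNA was lower in cardiomyocytes of both genotypes 3 days after MI. At day 3, 32 of 35 genes fell and 0 rose in Q150X cardiomyocytes relative to Q150X cardiomyocytes at homeostasis, against 12.1% of all genes tested that fell. In WT, 22 of 35 fell and 0 rose, against 7.22% of all genes tested. The median log2 fold change of members was -0.56 in Q150X (range -0.85 to -0.24, a median change of -32.1%) and -0.43 in WT (range -0.78 to 0.02, -25.8%), while the medians of all genes were within 0.01 of 0. The day 3 values lay wholly below those at homeostasis for 33 genes in Q150X and 25 in WT, against 19.4 and 17.5% of all genes. The 22 genes that fell in WT were all among the 32 of Q150X, of which they are 68.8%.

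**Figure D2:**
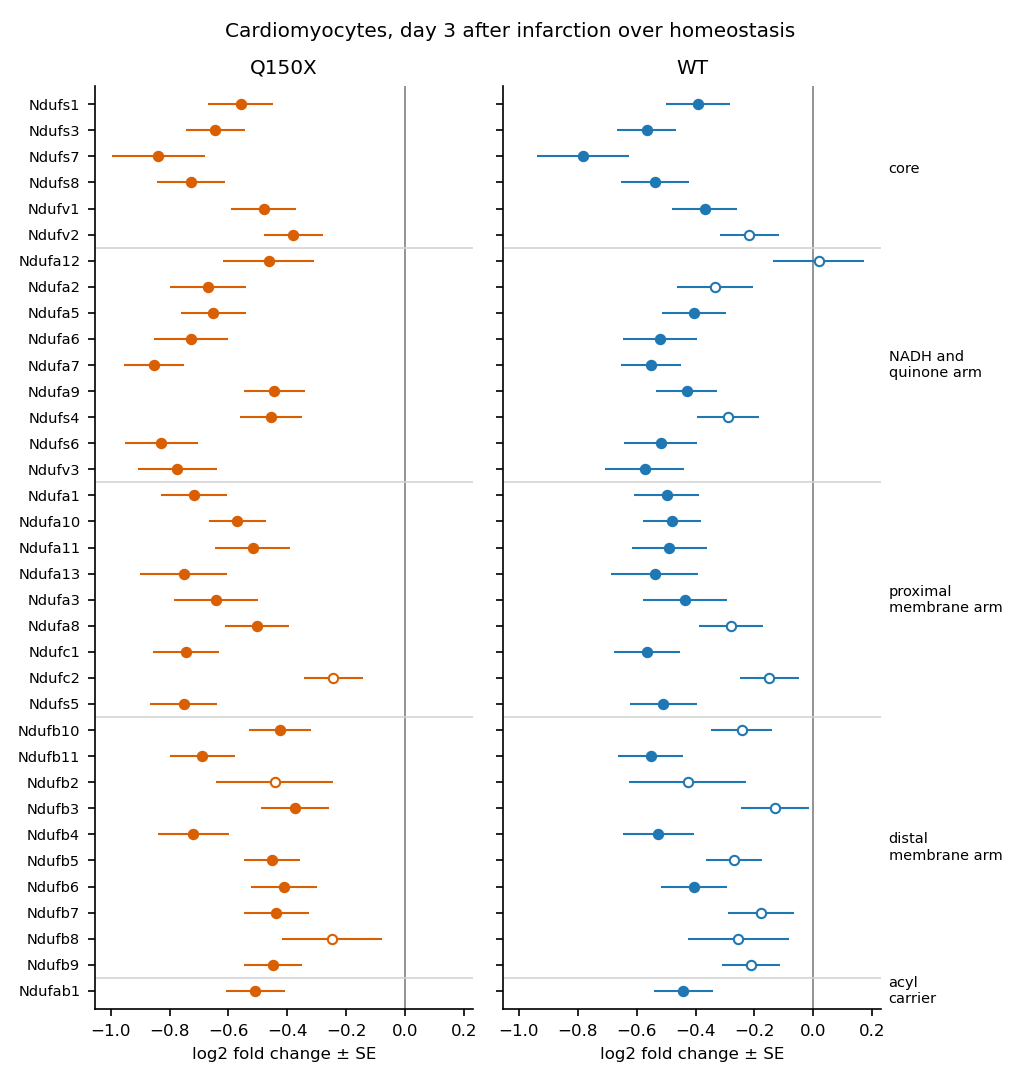
Log2 fold change (± SE) of each gene in cardiomyocytes at day 3 after MI over homeostasis, Q150X left and WT right, 3 libraries per group, sorted by role. Filled points passed the test: 32 in Q150X and 22 in WT, all to the left of 0.

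All 6 core subunits fell in Q150X cardiomyocytes and 5 of 6 in WT. Ndufs3, a core subunit of the quinone-reducing arm, had 188, 174 and 151 CPM in Q150X cardiomyocytes at day 3 and 254, 277 and 269 CPM in Q150X at homeostasis. It had 156, 151 and 180 CPM in WT at day 3, against 241, 235 and 243 CPM in WT at homeostasis. Every day 3 library lay below every homeostasis library, and in WT the fall of Ndufs3 had the smallest p of all members (log2 fold change -0.57 ± 0.10, adjusted p = 0.00159). Ndufs7 holds the iron-sulfur cluster next to ubiquinone, and had the most negative change in WT (-0.78 ± 0.16). Its WT libraries were at 64.2, 56.2 and 72.5 CPM at day 3, against 106, 108 and 118 CPM at homeostasis. Ndufv2, a core subunit that takes up electrons near the flavin, was the core gene that did not pass in WT. It had 297, 296 and 346 CPM in WT at day 3 and 390, 327 and 375 CPM in WT at homeostasis, so these groups overlapped.

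Of the 9 accessory subunits of the NADH-oxidising and quinone-reducing arm, 9 fell in Q150X and 6 in WT. Ndufa7, a subunit near the quinone site, had 44.3, 43.7 and 37.7 CPM in Q150X cardiomyocytes at day 3, against 68.0, 80.3 and 78.6 CPM in Q150X at homeostasis. This was the smallest p of any member in Q150X (log2 fold change -0.85 ± 0.10, adjusted p = 5.07e-05), and Ndufa7 also fell in WT (-0.55 ± 0.10). Ndufs6, a zinc-binding subunit added late in assembly, had 103, 89.7 and 75.1 CPM in Q150X at day 3, against 138, 176 and 162 CPM in Q150X at homeostasis (-0.83 ± 0.12). Ndufa12 was the exception in WT. It had 55.7, 60.2 and 76.7 CPM in WT at day 3 and 60.8, 68.7 and 60.8 CPM in WT at homeostasis, with a log2 fold change of 0.02 ± 0.15, while in Q150X it fell.

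In the proximal membrane arm 8 of 9 genes fell in Q150X and 7 of 9 in WT. Ndufc1 had 59.8, 55.4 and 48.9 CPM in Q150X at day 3, against 78.3, 98.3 and 98.0 CPM in Q150X at homeostasis (-0.74 ± 0.11), and it fell in WT as well (-0.56 ± 0.11). Ndufa1, an X-linked subunit, and Ndufs5, on the intermembrane side, fell by 0.72 ± 0.11 and 0.75 ± 0.12 on the log2 scale in Q150X. Ndufa10 fell by 0.48 ± 0.10 in WT. Ndufc2 did not pass in either genotype, with -0.24 ± 0.10 in Q150X. In the distal membrane arm 8 of 10 genes fell in Q150X and 3 of 10 in WT. Ndufb11, also X-linked, had 103, 102 and 119 CPM in WT at day 3, against 168, 147 and 161 CPM in WT at homeostasis (-0.55 ± 0.11). Ndufb2 and Ndufb8 did not pass in either genotype and were the members with the fewest counts. Ndufab1 fell in both.

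The genotypes were compared directly in the change at day 3 by an interaction term. It passed for 0 of 35 genes and for 0% of all genes tested with edgeR, and 0 members were called by DESeq2 or voom. An unadjusted p under 0.05 was found for 1 member, against 1186 of 15169 genes. The interaction was below 0, a deeper fall in Q150X, for 34 of 35 genes, with a median of -0.18 on the log2 scale. Ndufa12 had the smallest adjusted p (-0.48 ± 0.22, adjusted p = 0.614) and Ndufa7 followed (-0.30 ± 0.14, adjusted p = 0.640). The larger count of falls in Q150X is therefore not shown to be a difference between genotypes.

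Other respiratory chain genes moved in the same direction in cardiomyocytes. Of 24 nuclear genes of complexes II to IV, 22 fell in Q150X and 15 in WT (medians -0.55 and -0.41), among them Cox7a1, a muscle isoform of cytochrome c oxidase (-1.18 ± 0.15 and -1.04 ± 0.15), and Cox5b (-0.77 ± 0.12 and -0.59 ± 0.12). Of 15 nuclear genes of ATP synthase, 14 fell in Q150X and 9 in WT. Of 7 complex I subunits of mitochondrial DNA, 2 fell in Q150X and 5 in WT, with mt-Nd5 falling in both (-0.48 ± 0.13 and -0.73 ± 0.13). Of 16 assembly factors, which build complex I without staying in it, 6 fell in Q150X and 1 in WT. Foxred1 fell in both (-0.51 ± 0.10 and -0.43 ± 0.10). Of 12 regulators of mitochondrial biogenesis, 4 fell in Q150X and 3 in WT. Perm1, a muscle regulator of oxidative genes, changed by -0.82 ± 0.14 in Q150X and -0.58 ± 0.14 in WT. The nuclear receptor Esrra changed by -0.59 ± 0.13 and -0.40 ± 0.13, and its relative Esrrg by -0.38 ± 0.10 and -0.44 ± 0.10. The ratio of summed complex I to summed complexes II to IV mRNA overlapped between times: 54.7 ± 1.78 per 100 in Q150X at day 3 and 55.7 ± 0.591 in Q150X at homeostasis, and 55.8 ± 0.637 in WT at day 3 and 55.2 ± 0.579 in WT at homeostasis (SD, n = 3 each).

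Markers of other cells moved with this fall. The 9 leukocyte markers tested rose in both genotypes, to a sum of 129 to 316 CPM in Q150X and 113 to 214 CPM in WT at day 3, against 2.18 to 4.19 CPM in Q150X and 4.90 to 11.7 CPM in WT at homeostasis. Of 8 fibroblast markers 6 rose in Q150X and 5 in WT, to 517 to 908 CPM in Q150X and 410 to 723 CPM in WT, against 18.2 to 54.2 and 40.9 to 87.5 CPM at homeostasis. Of 12 cardiomyocyte structure genes, 8 fell in Q150X and 5 in WT (medians -0.55 and -0.31). Per 100 counts of those structure genes, members had 6.65 ± 0.270 counts in Q150X at day 3 and 6.75 ± 0.183 in Q150X at homeostasis, and 6.21 ± 0.592 in WT at day 3 and 6.51 ± 0.125 in WT at homeostasis (SD, n = 3 each), with overlap in both genotypes. Fewer cardiomyocytes and less complex I mRNA per cardiomyocyte cannot be told apart in bulk samples. With library size alone as the scale, 15 members fell in Q150X and 1 in WT (Ndufs7), the member medians were -0.29 and -0.13, and the medians of all genes rose to 0.27 and 0.30. The share of all genes that fell on that scale is not given here.

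Several of these promoters carry motifs of factors known for respiratory genes. RefSeq promoters of build GRCm38.p6, from 250 bases before to 50 after the start, were at hand for 32 of the 35 genes and were searched on both strands. The NRF1 motif was in 7 of 32 members (21.9%) and in 5.19% of 27025 genes. The YY1 motif AAGATGGCG was in 5 (15.6%, against 1.64%), the ETS motif CCGGAAG, read by GABPA, in 4 (12.5%, against 9.93%), and the ESRRA motif AAGGTCA in 3 (9.38%, against 5.38%). The promoters of 4 genes that fell in cardiomyocytes of both genotypes are shown because together they hold each of these motifs, in capitals. A match is a description and not a bound site. Ndufs6 (chr13:73328433-73328732, minus strand) has NRF1 and YY1 motifs, Ndufs5 (chr4:123718137-123718436, minus strand) ESRRA and NRF1 motifs, Ndufs3 (chr2:90904672-90904971, minus strand) a pair of ETS motifs on opposite strands, and Ndufc1 (chr3:51408906-51409205, minus strand) a YY1 motif.
Ndufs6: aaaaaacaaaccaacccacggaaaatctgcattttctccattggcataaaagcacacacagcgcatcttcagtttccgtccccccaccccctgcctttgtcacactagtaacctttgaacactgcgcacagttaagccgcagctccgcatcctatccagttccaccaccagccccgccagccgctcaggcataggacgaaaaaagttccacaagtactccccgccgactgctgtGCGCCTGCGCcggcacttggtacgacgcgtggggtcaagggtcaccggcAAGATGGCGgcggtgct
Ndufs5: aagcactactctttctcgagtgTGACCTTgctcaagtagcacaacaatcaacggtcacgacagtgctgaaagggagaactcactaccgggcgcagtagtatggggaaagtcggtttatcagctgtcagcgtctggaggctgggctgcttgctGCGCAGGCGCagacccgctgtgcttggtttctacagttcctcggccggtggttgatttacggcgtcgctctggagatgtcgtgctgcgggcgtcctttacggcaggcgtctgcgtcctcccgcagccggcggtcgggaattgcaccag
Ndufs3: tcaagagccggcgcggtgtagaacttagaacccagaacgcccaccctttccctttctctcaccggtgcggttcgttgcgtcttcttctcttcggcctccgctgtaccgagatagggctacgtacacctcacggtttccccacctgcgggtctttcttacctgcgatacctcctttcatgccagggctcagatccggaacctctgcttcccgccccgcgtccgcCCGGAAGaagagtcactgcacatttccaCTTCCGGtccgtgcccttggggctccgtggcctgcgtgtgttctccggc
Ndufc1: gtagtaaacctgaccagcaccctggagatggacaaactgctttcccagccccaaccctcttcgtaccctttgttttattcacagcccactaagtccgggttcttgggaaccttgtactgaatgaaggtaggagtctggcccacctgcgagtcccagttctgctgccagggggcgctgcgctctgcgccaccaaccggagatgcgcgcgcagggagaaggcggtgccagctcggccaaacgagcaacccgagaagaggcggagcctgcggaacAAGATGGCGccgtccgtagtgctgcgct

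Few members passed the test in whole hearts at day 7. In Q150X hearts 6 of 35 genes fell and 0 rose at day 7 relative to homeostasis, against 12.3% of all genes tested that fell, so the share of members called (17.1%) was close to that of all genes. In WT hearts 0 passed with edgeR, against 6.07% of all genes. An unadjusted p under 0.05 was found for 5 members, against 5174 of 17845 genes. DESeq2 called 3 members in WT and voom 12, all lower, and their shares of all genes called are not given here. The values of members leaned one way: all 35 log2 fold changes were below 0 in Q150X (median -0.28) and 34 of 35 in WT (median -0.22), where the medians of all genes were 0.06 and 0.05. Groups did not overlap for 5 members in Q150X and 8 in WT, against 13.2 and 11.9% of all genes. Cell markers moved in the same comparisons, and their part in the values of members was not tested. Of 12 cardiomyocyte structure genes, 6 fell in Q150X (median -0.55) and 2 in WT (median -0.32), to sums of 50848 to 57737 CPM in Q150X and 51833 to 66629 CPM in WT at day 7, against 83067 to 107362 CPM in Q150X and 66860 to 89649 CPM in WT at homeostasis. Of 8 fibroblast markers 6 rose in Q150X and 3 in WT, and of 10 leukocyte markers 4 rose in Q150X and 1 in WT.

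Ndufb10, of the distal arm, had the smallest p at day 7 in Q150X. It had 242, 275, 294 and 383 CPM in Q150X hearts at day 7, against 595, 385 and 394 CPM in Q150X hearts at homeostasis (-0.62 ± 0.17, adjusted p = 0.0100). In WT it had 328, 257, 324 and 300.1 CPM at day 7 and 382, 434 and 416 CPM at homeostasis (-0.44 ± 0.17, adjusted p = 0.0805). Ndufs1 fell in Q150X, with 403, 402, 344 and 432 CPM at day 7, against 527, 583 and 637 CPM at homeostasis (-0.56 ± 0.16). Every day 7 heart lay below every homeostasis heart for Ndufb10 in each genotype and for Ndufs1 in Q150X. Ndufv3, an accessory subunit beside the flavin site, Ndufa9, near the quinone site, Ndufa8 and Ndufa5 were the other 4 that fell in Q150X (-0.46 to -0.58). The count in Q150X was 2 without homeostasis library 1, day 7 library 1 or day 7 library 2, 11 without homeostasis library 2 and 10 without day 7 library 4. It was 1 with library size alone or with only the compared groups in the fit. The interaction of genotype with the day 7 change passed for 0 of 35 genes (0% of all genes, 0 members at an unadjusted p under 0.05, 0 by DESeq2 or voom), with a median of -0.07.

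**Figure D3:**
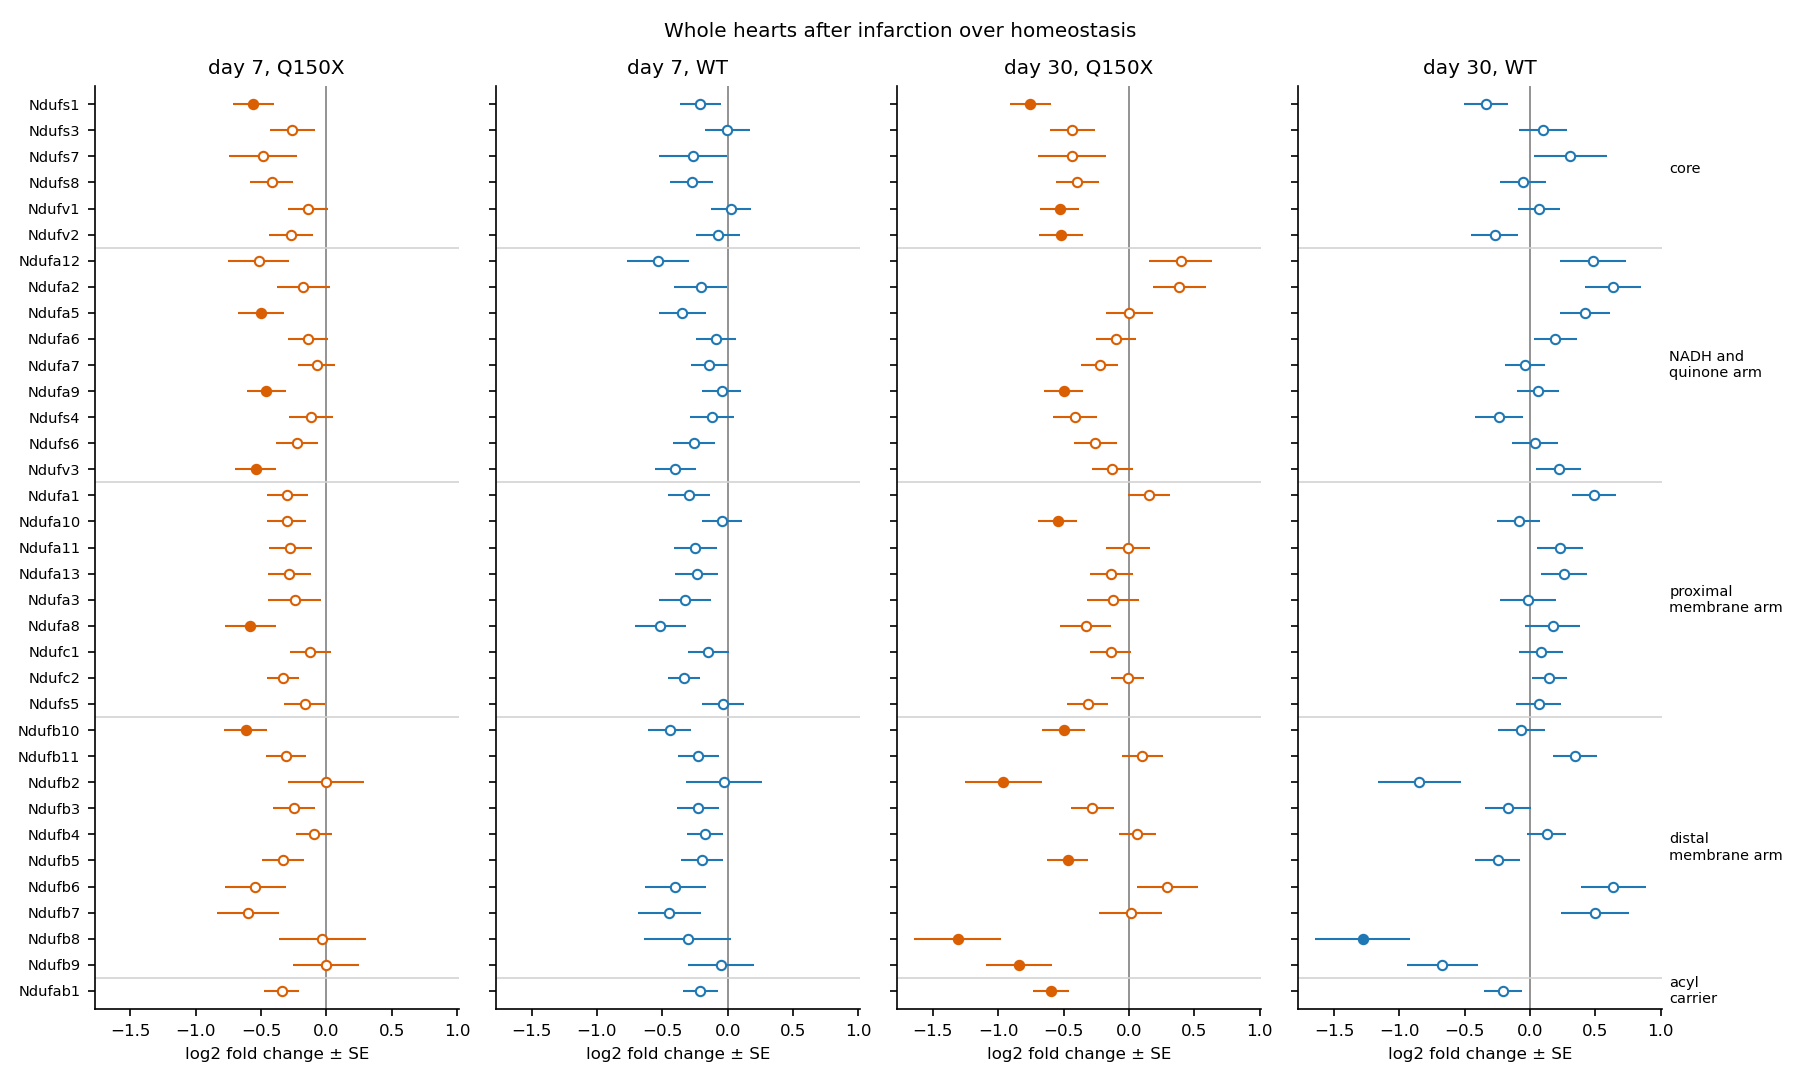
Log2 fold change (± SE) of each gene in whole hearts at day 7 (4 libraries of each genotype) and day 30 (4 Q150X and 3 WT) over homeostasis (3 of each). Filled points passed the test: 6, 0, 11 and 1 from left to right.

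At day 30, 11 of 35 genes fell and 0 rose in Q150X hearts relative to homeostasis, against 14.2% of all genes tested that fell. In WT hearts 1 fell, against 3.49%. The median log2 fold change of members was -0.28 in Q150X and 0.07 in WT. Day 30 lay wholly below homeostasis for 16 members in Q150X and 0 in WT, against 13.6% of all genes in each, and wholly above for 8 in WT, against 15.5%. The 11 genes were the core subunits Ndufs1, Ndufv1 and Ndufv2, then Ndufa9, Ndufa10 and Ndufab1, and 5 distal arm subunits (Ndufb2, Ndufb5, Ndufb8, Ndufb9 and Ndufb10). Of these, Ndufb2, Ndufb8 and Ndufb9 overlap another gene on the same strand, and homeostasis library 1 lay near the day 30 level for them. The part of either in these calls was not tested. Ndufs1 had 338, 357, 306 and 382 CPM in Q150X hearts at day 30, against 527, 583 and 637 CPM in Q150X at homeostasis, with no overlap (-0.75 ± 0.16, adjusted p = 0.00157). Ndufv1, which binds NADH and the flavin, had 512, 513, 414 and 515 CPM in Q150X at day 30, against 867, 592 and 656 CPM in Q150X at homeostasis (-0.53 ± 0.15, adjusted p = 0.0128). Ndufab1 fell by 0.60 ± 0.14 and Ndufa10 by 0.55 ± 0.15 on the log2 scale. The interaction of genotype with the day 30 change passed for 0 of 35 genes (0% of all genes, 0 members called by DESeq2 or voom). An unadjusted p under 0.05 was found for 3 members, against 1724 of 17845 genes. All 35 interactions were below 0, with a median of -0.30, which was -0.03 with library size alone and -0.10 without the libraries that stand apart. The smallest adjusted p was that of Ndufv1 (-0.60 ± 0.22, adjusted p = 0.436).

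Cell markers differed alongside these falls. In Q150X hearts at day 30, 8 of 12 cardiomyocyte structure genes fell (median -0.62), to a sum of 40461 to 61013 CPM, against 83067 to 107362 CPM at homeostasis, and all 10 leukocyte and 7 of 8 fibroblast markers rose. In WT hearts 1 structure gene fell, and 5 leukocyte and 3 fibroblast markers rose. Per 100 counts of structure genes, members had 13.2 ± 2.25 in Q150X at day 30 (n = 4) and 9.11 ± 0.228 in Q150X at homeostasis (n = 3), and 11.7 ± 0.737 in WT at day 30 and 9.57 ± 0.449 in WT at homeostasis (SD, n = 3 each). That ratio was higher at day 30 in every library of both genotypes. Among regulators 10 of 12 fell in Q150X at day 30 (median -0.72), with Gabpa (-0.83 ± 0.15), an ETS factor, and Esrrg (-0.94 ± 0.19), while in WT 1 fell, Tfam, the factor that packs mitochondrial DNA (-0.36 ± 0.11). With library size alone, 3 members fell and 3 rose in Q150X, and the median of all members was -0.01, with the median of all genes at 0.24. Shares of all genes called on that scale are not given here.

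Between day 7 and day 30 the members split. In Q150X hearts 9 rose and 4 fell at day 30 relative to day 7, against 14.9 and 16.5% of all genes tested. In WT hearts 12 rose and 2 fell, against 13.9 and 16.1%. The 9 that rose in Q150X were all among the 12 of WT: Ndufa1, Ndufa2, Ndufa5, Ndufa12, Ndufb6, Ndufb7, Ndufb11, Ndufc2 and Ndufv3. Ndufb2 and Ndufb8 fell in both, and Ndufb9 and Ndufv1 in Q150X. Several of these calls did not hold with 1 library left out. In WT that of Ndufb2 was lost whichever library was left out, and that of Ndufb8 unless it was day 7 library 2. In Q150X the call of Ndufv1 was lost unless it was day 7 library 1, and that of Ndufb2 was lost without day 7 library 4. Those of Ndufa5, Ndufa1 and Ndufa2 in Q150X were lost in 5, 4 and 3 such fits. Ndufb6 had 129, 111, 128 and 107 CPM in Q150X at day 30, against 52.1, 55.3, 79.4 and 78.6 CPM in Q150X at day 7 (0.84 ± 0.22). In WT it had 158, 122 and 143 CPM at day 30, against 71.0, 62.8, 78.3 and 62.8 CPM at day 7 (1.04 ± 0.23). Ndufb8 had 5.35, 4.88, 4.93 and 4.46 CPM in Q150X at day 30, against 8.81, 10.8, 13.3 and 14.9 CPM in Q150X at day 7 (-1.28 ± 0.32). Neither gene had overlapping groups in these comparisons. The members that fell tended to have longer merged exons, which is not the length of their mRNA. Across the 35 genes the change and this exon length had a Spearman rho of -0.53 in Q150X and -0.54 in WT. Over 17491 genes it was -0.11 in each.

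Library 1 of the homeostasis hearts lay with the day 30 hearts for some of these genes, but not in level over all members. Day 30 was below library 1 for 34 of 35 genes in Q150X (median log2 difference -0.31) and for 4 of 35 in WT (median 0.24). It was below libraries 2 and 3 for 20 of 35 genes in Q150X (median -0.16) and for 19 of 35 in WT (median -0.02). For Ndufb8, homeostasis libraries 1, 2 and 3 held 5.50, 17.1 and 13.9 CPM in Q150X and 6.0, 20.3 and 18.2 CPM in WT. Ndufb9 had 84.8, 156 and 160 CPM in these Q150X libraries and 71.6, 182 and 157 CPM in these WT libraries, and 65.8 to 79.5 CPM in Q150X and 74.5 to 97.6 CPM in WT at day 30. Over the 35 genes, the log2 difference of library 1 from libraries 2 and 3 and the change from day 7 to day 30, which share no library, had a Spearman rho of 0.68 in Q150X and 0.76 in WT (0.47 and 0.41 over all 17845 genes). The signs were the same for 27 of 35 genes in Q150X and 18 of 35 in WT. Adipose markers, at most 0.270 CPM in every day 7 heart, summed to 122 CPM in Q150X and 114 CPM in WT in library 1, and to 0.62 to 179 CPM at day 30. Without the libraries that stand apart, 10 members fell and 4 rose in Q150X at day 30 over homeostasis (Ndufa2, Ndufa12, Ndufb6 and Ndufb7), and 6 fell and 3 rose in WT (Ndufa2, Ndufb6 and Ndufb7). The share of all genes called in that setting is not given here, so a general shift in calls is not told apart. The part that a difference between libraries has in the day 30 changes was not tested.

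**Figure D4:**
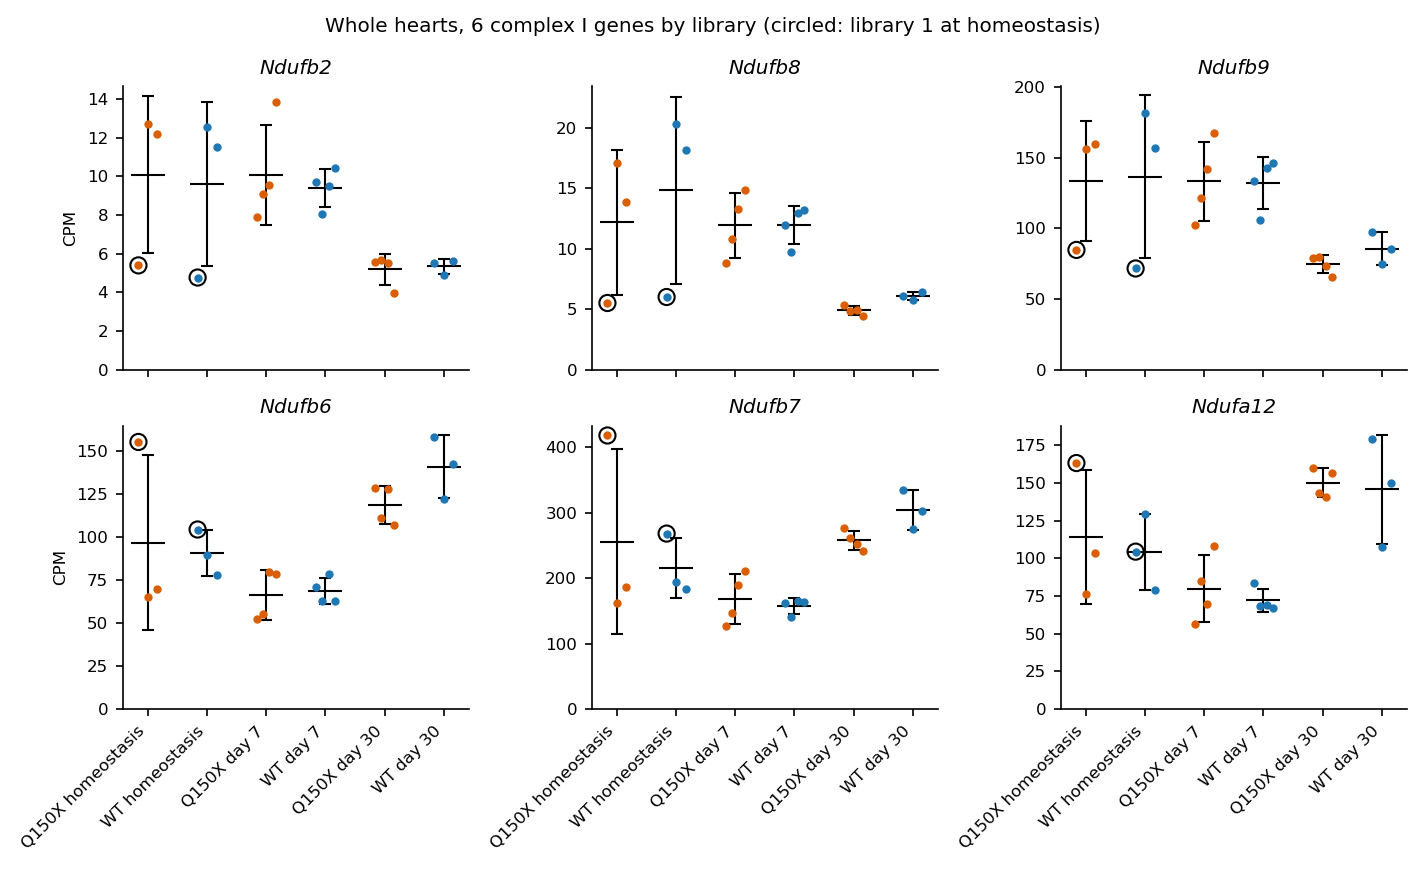
CPM of 6 genes in every heart library (points), with mean and SD (bars), at homeostasis, day 7 and day 30, Q150X orange and WT blue. For Ndufb2, Ndufb8 and Ndufb9, the circled library 1 at homeostasis lies with the day 30 hearts and apart from libraries 2 and 3.

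The count at day 30 over homeostasis was 7 in Q150X without homeostasis library 3 or without day 30 library 3. In WT the call of Ndufb8 (-1.28 ± 0.36, adjusted p = 0.0343) was lost without any 1 of the other 5 libraries, and 6 members passed without homeostasis library 1. At day 30 over day 7, 8 members passed in WT without day 30 library 1. In Q150X 5 passed without day 7 library 2 or day 30 library 1, 6 without day 30 library 3 and 7 without day 7 library 1 or day 30 library 2.

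No member differed between Q150X and WT within any tissue and time by edgeR, against 0.443% of all genes called in hearts at day 30 and 0% in the other 6 comparisons. Members leaned higher in Q150X cardiomyocytes at homeostasis. All 35 log2 fold changes were above 0 (median 0.23), and 20 genes had no overlap between genotypes, against 9.23% of all genes. An unadjusted p under 0.05 was found for 13 members, against 2009 of 15169 genes. DESeq2 and voom called 0. Ndufa2 had the largest value with the smallest p: 59.9, 73.8 and 71.8 CPM in Q150X, against 50.9, 46.1 and 54.5 CPM in WT (0.44 ± 0.13, adjusted p = 0.194), and it passed when genes with low counts were kept in. Ndufa7 had 68.0, 80.3 and 78.6 CPM in Q150X, against 61.4, 56.3 and 61.1 CPM in WT (0.34 ± 0.10, adjusted p = 0.194). Endothelial markers summed to 153 to 232 CPM in the Q150X and 220 to 523 CPM in the WT cardiomyocyte libraries at homeostasis. At day 3 the lean was small (28 of 35 above 0, median 0.04, 0 called by DESeq2 and voom). There 1 member had an unadjusted p under 0.05, against 254 of 15169 genes.

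In hearts at day 30 the lean was the other way. For 34 of 35 genes the log2 fold change of Q150X over WT was below 0 (median -0.22), and groups did not overlap for 9, against 9.32% of all genes. With edgeR 1 member had an unadjusted p under 0.05, against 2481 of 17845 genes. DESeq2 called 0 members and voom 2 (Ndufa8 and Ndufv1), and the shares of all genes that they called are not given here. Ndufv1 had 512, 513, 414 and 515 CPM in Q150X, against 755, 611 and 625.3 CPM in WT (-0.44 ± 0.15, adjusted p = 0.191), and the groups did not overlap. Ndufa10 had 447, 457, 361 and 445 CPM in Q150X, against 611, 468 and 516 CPM in WT (-0.32 ± 0.15, adjusted p = 0.365). Cardiomyocyte structure genes had a median of -0.27 in the same comparison and fibroblast markers 0.93, with 0 genes of either list called. With library size alone the member median was -0.05. In hearts at homeostasis 29 of 35 values were above 0 (median 0.11), and at day 7 19 of 35 were (median 0.01). An unadjusted p under 0.05 was found for 1 member and 504 of 17845 genes at homeostasis, and for 0 members at day 7. DESeq2 and voom called 0 in both. Without the libraries that stand apart the median at homeostasis was -0.11.

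Endothelial libraries held little complex I mRNA, and few members passed the test there. The groups compared there differ in sex-linked mRNA. Xist, expressed from the inactive X chromosome of females, had 555 to 1089 CPM in Q150X and 494 to 534 CPM in WT at day 3, against at most 1.19 CPM in Q150X and 0.993 CPM in WT at homeostasis. The Y-linked Ddx3y had at most 0.501 CPM in Q150X and 0.261 CPM in WT at day 3, against 232 to 267 CPM in Q150X and 188 to 241 CPM in WT at homeostasis. Sex and time after MI therefore cannot be told apart in endothelial cells. All 4 atrial markers also fell in both genotypes, to 1.003 to 1.72 CPM in Q150X and 2.78 to 10.7 CPM in WT at day 3, against 76.0 to 217 CPM in Q150X and 145 to 205 CPM in WT at homeostasis. At day 3 in Q150X, 1 of 35 genes rose and 1 fell relative to homeostasis, against 18.7 and 15.1% of all genes tested. In WT 0 passed, against 6.71 and 2.81% of all genes. There DESeq2 called 0 and voom 4, and their shares of all genes called are not given here. An unadjusted p under 0.05 was found for 1 member, against 4566 of 18223 genes. Ndufv3 had 36.2 and 44.3 CPM in Q150X at day 3, against 31.3, 27.9 and 25.01 CPM in Q150X at homeostasis (0.52 ± 0.16, adjusted p = 0.0368). Ndufb2 had 4.64 and 2.85 CPM in Q150X at day 3, against 6.62, 6.81 and 7.25 CPM in Q150X at homeostasis (-0.89 ± 0.26, adjusted p = 0.0306). In WT the smallest p was that of Ndufa10, with 67.5 and 69.1 CPM at day 3, against 48.7, 51.4 and 54.9 CPM at homeostasis (0.40 ± 0.18, adjusted p = 0.198). Groups of these 3 genes did not overlap, but in WT, where 0 passed, 15 members lay wholly above homeostasis and 3 wholly below. The share of all genes without overlap is not given here, so this lends the 3 genes no support. Neither call in Q150X was kept without homeostasis library 2 or 3, and without homeostasis library 1 that of Ndufv3 was. Both calls also rest on day 3 library 2, without which that group holds 1 library. With 1 library left out at a time, the log2 fold change was -1.31 to -0.60 for Ndufb2 and 0.34 to 0.64 for Ndufv3.

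The Q150X values at day 3 rest on 2 unlike libraries. Their members summed to 1284 CPM in library 1 and 808 CPM in library 2, against 995 to 1229 CPM in Q150X at homeostasis. The member median was -0.09 with both, -0.51 without library 1 and 0.28 without library 2. Leaving either out leaves 1 library in the group, so counts of members from those fits are not read as calls. In WT the sums were 1098 and 1127 CPM at day 3 and 866 to 1110 CPM at homeostasis. Between Q150X and WT at day 3, and for the interaction, 0 members were called with both libraries. With 1 library left out at a time, the member medians were -0.56 to 0.17 between genotypes and -0.66 to 0.075 for the interaction. Endothelial cells at homeostasis had 0 members at an unadjusted p under 0.05 between genotypes (0 by DESeq2 and voom), with a median of 0.10. Leukocyte markers summed to 3354 and 7292 CPM in the 2 Q150X libraries and 3415 and 3913 CPM in the 2 WT libraries at day 3, against 90.9 to 183 CPM in Q150X and 133 to 163 CPM in WT at homeostasis.

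Summed over the 35 genes, the levels follow the single genes. Cardiomyocytes held 4440 ± 408 CPM in Q150X and 4394 ± 434 CPM in WT at day 3, and 6523 ± 327 CPM in Q150X and 5773 ± 364 CPM in WT at homeostasis (SD, n = 3 each), with no overlap between times in either genotype. Hearts of Q150X mice held 8338 ± 1261 CPM at homeostasis (n = 3), 6586 ± 1118 CPM at day 7 (n = 4) and 6747 ± 326 CPM at day 30 (n = 4). Hearts of WT mice held 7638 ± 864 CPM at homeostasis (n = 3), 6672 ± 692 CPM at day 7 (n = 4) and 8024 ± 901 CPM at day 30 (n = 3). In Q150X the day 30 sums lay below all those at homeostasis, while the WT sums overlapped. These separations are on the TMM scale. As a share of all counts, members overlapped between times in Q150X hearts (0.680 to 0.770% at day 30, 0.685 to 0.836% at homeostasis). They also overlapped in WT cardiomyocytes (0.449 to 0.512% at day 3, 0.428 to 0.558% at homeostasis). In Q150X cardiomyocytes they did not (0.469 to 0.539% at day 3, 0.586 to 0.623% at homeostasis).

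**Figure D5:**
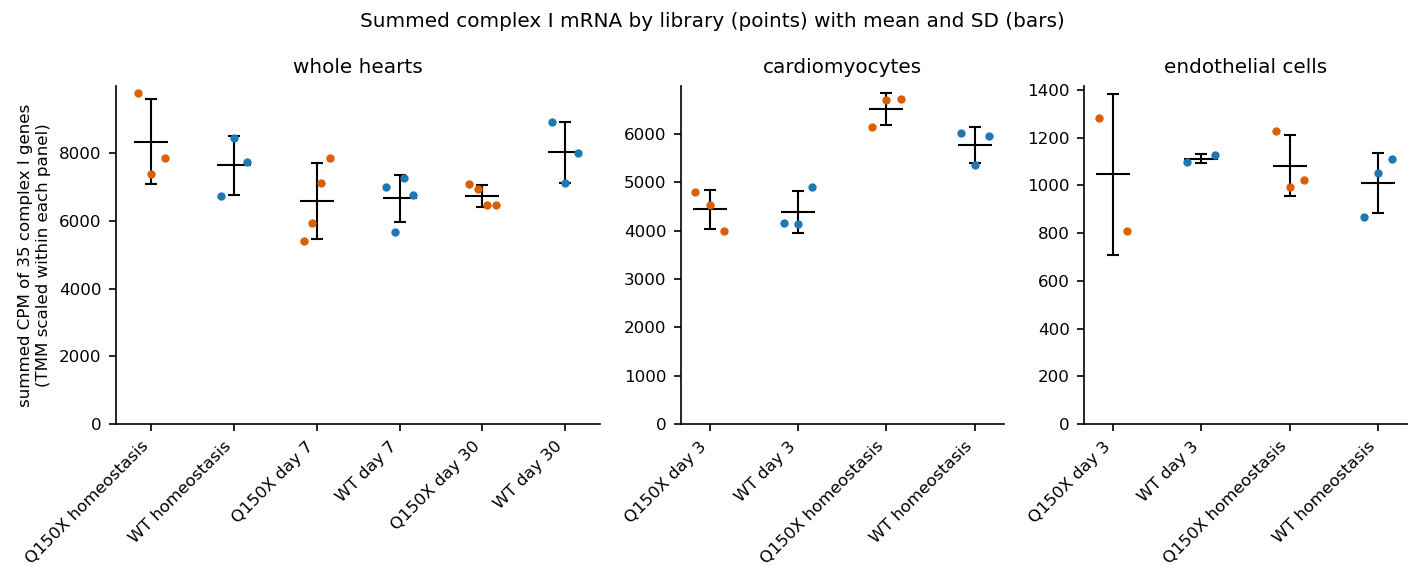
Summed CPM of the 35 genes in each library (points), with mean and SD (bars), in hearts (left), cardiomyocytes (middle) and endothelial cells (right), Q150X orange and WT blue. The axes differ between panels, since each compartment was scaled alone. Cardiomyocyte sums are 3992 to 4792 CPM in Q150X and 4136 to 4895 CPM in WT at day 3, and 6146 to 6723 CPM in Q150X and 5353 to 6012 CPM in WT at homeostasis.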

How the data were processed

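RNA-seq of whole hearts, cardiomyocytes and endothelial cells was deposited by the authors as raw counts per Ensembl gene. The submitters' processing notes name GRCm39, HISAT2 and kallisto. The tool that made the counts, the annotation and the strand setting were not given in the sources used here. Gene symbols, exon lengths and overlaps come from GENCODE vM21, matched by gene ID.

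From these deposited counts, edgeR 4.0.16 (R 4.3.3) was fitted to all genes of a compartment, with 1 fit of the homeostasis cells for cardiomyocytes against endothelial cells. Genes passed filterByExpr (minimum count 10, total 15), libraries were scaled by TMM, and a robust quasi-likelihood test was adjusted by the Benjamini-Hochberg method over all genes of each of 23 comparisons, with 0.05 as the threshold. Standard errors (SE) were taken as the absolute log2 fold change divided by the square root of the F statistic. CPM are on the TMM scale of their fit. The fits were checked on simulated counts. Members and lists were chosen with earlier results of these data known. The rule for named members took the called ones with the smallest p (up to 5 per direction), or the 3 with the smallest p where fewer than 3 were called (2 between genotypes and for interactions), the most extreme changes, and members that ran against the median; up to 3 called genes came from each other list. Other members named were chosen after their values were seen. Alternatives used DESeq2 1.42.0, voom of limma 3.58.1, other scalings and filters, a replicate block and left-out libraries. Libraries of the same number deviated together in every pair (correlation above 0.1) for hearts at homeostasis between genotypes and at day 7 against homeostasis in Q150X, a pattern in the data and not in the labels.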

Additional observations from a re-analysis of the deposited data

Results flagged for a closer look

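In 7 of 108 tests, of each member and of the sum of the 35 in each group of 4 hearts, 1 library lay far from the other 3, where chance gives about 1 in 20. In Q150X hearts at day 30, library 3 was low for Ndufa10 (361 CPM, against 445 to 457 CPM in the others) and Ndufv1 (414 CPM, against 512 to 515 CPM), and library 4 was low for Ndufa5 (267.5 CPM, against 302 to 306 CPM) and Ndufb2 (3.98 CPM, against 5.52 to 5.66 CPM). In WT hearts at day 7, library 1 was high for Ndufa12 (83.6 CPM, against 66.9 to 69.2 CPM), and library 2 was low for Ndufb7 (140.0 CPM, against 162 to 166 CPM) and Ndufs4 (133.6 CPM, against 186 to 188 CPM).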

How the results depend on the processing

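Depth did not limit detection of the members, but 2 to 4 libraries per group limit precision. Most results kept their direction and their side of the threshold. The exceptions follow. With library size alone, members called were 15 in Q150X and 1 in WT cardiomyocytes at day 3 (medians -0.29 and -0.13), 1 in Q150X hearts at day 7 and 6 at day 30 (median -0.014), and the medians were -0.053 for Q150X over WT at day 30, -0.033 for the day 30 interaction, and 2.37 in Q150X and 2.21 in WT for cardiomyocytes over endothelial cells. With voom, 12 were called in WT hearts at day 7, 17 in Q150X and 16 in WT hearts at day 30, 2 between genotypes at day 30, and 0 in Q150X and 4 in WT endothelial cells. With DESeq2, 10 were called in Q150X and 3 in WT hearts at day 7 and 2 in WT at day 30. With only the compared groups, 1 was called in Q150X and 4 in WT hearts at day 7, 7 in Q150X and 0 in WT at day 30, and 0 in Q150X and 8 in WT endothelial cells. With no filter on low counts, 8 were called in Q150X hearts at day 30 over day 7, 0 in WT at day 30 over homeostasis, 0 in Q150X endothelial cells and 1 between genotypes in cardiomyocytes at homeostasis. Without the libraries that stand apart, 3 were called in Q150X and 5 in WT hearts at day 7 and 9 in WT at day 30, and medians were -0.11 for genotype in hearts at homeostasis, -0.10 for the day 30 interaction, 0.28 for Q150X endothelial cells and 0.075 for their interaction.

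With a replicate block, 0 members were called in Q150X endothelial cells, 32 in Q150X and 20 in WT cardiomyocytes and 6 in Q150X hearts at day 7. Leaving out 1 library at a time gave 2 to 11 called in Q150X and 0 to 1 in WT hearts at day 7, 7 to 14 in Q150X and 0 to 6 in WT at day 30, 5 to 11 in Q150X and 8 to 12 in WT at day 30 over day 7, and in endothelial cells 0 to 20 in Q150X (median -0.51 to 0.28), 0 to 19 between genotypes (-0.56 to 0.17) and 0 to 18 for the interaction (-0.66 to 0.075). The endothelial ranges include fits that leave 1 library in a group. Counts from such fits are not read as calls, and their shares of all genes called are not given here. Of the genes named, these changed sign. Ndufb9 at day 7 in Q150X was 0.20 with library size alone and -0.24 to 0.15 with libraries left out. Ndufc2 in Q150X cardiomyocytes was 0.028 with library size alone. Ndufs3 between genotypes in hearts at homeostasis was -0.12 without the libraries that stand apart, -0.061 under voom and -0.087 to 0.34 with libraries left out. Ndufv1 at day 7 in WT was -0.0046 with the size factors of DESeq2 and with DESeq2, -0.033 with no filter and without the libraries that stand apart, -0.012 with the replicate block, -0.0011 with voom, -0.034 with only the compared groups and -0.059 to 0.093 with libraries left out. Ndufa12 in WT cardiomyocytes was -0.12 to 0.11 with libraries left out. The cause was not tested.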

Other observations

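The complex I subunits of mitochondrial DNA differed from the nuclear ones in endothelial cells at day 3. All 7 mt-Nd genes rose in Q150X (median log2 fold change 3.99) and 2 of 7 in WT (median 3.28), against 18.7 and 6.71% of all genes tested. The share of all counts from the mitochondrial genome moved with them, at 35.5 and 3.65% in the Q150X libraries and 18.0 and 17.6% in the WT libraries at day 3, against 1.73 to 1.89% in Q150X and 1.87 to 2.40% in WT at homeostasis. Its part in the calls was not tested. Their sums were 197417 and 10814 CPM in the Q150X libraries and 73274 and 76723 CPM in the WT libraries at day 3, against 6097 to 7530 CPM in Q150X and 6513 to 8893 CPM in WT at homeostasis. The Q150X libraries lay on either side of the WT libraries.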
